A study of Mus musculus with 35 samples.

Results

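The endoderm transcription factor genes followed here were the forkhead genes Foxa1, Foxa2 and Foxa3 and the nuclear receptor genes Hnf4a and Hnf4g. They were chosen by name, and all 5 stood among the 44853 genes of the induction table, while 2 of them, Foxa2 and Hnf4a, stood among the 6275 genes of the siRNA table, which the authors had limited to genes they called responsive to GATA6. The induction series held 23 RNA-seq libraries. Of these, 21 came from KH2 mouse ES cells (C57BL/6 x 129/Sv) carrying a doxycycline (Dox)-inducible Gata6 cassette, untreated (0 h) or given Dox at 1 µg/mL for 16, 24, 48, 72, 96 or 168 h, with 3 libraries per group. The other 2 came from untreated wild type XEN cells of line X10 (CD1), an extra-embryonic endoderm line that served as the reference for primitive endoderm and differed from the ES cells in strain as well as in cell type. A further 12 libraries, the siRNA series, came from inducible ES cells that were all given Dox at 1 µg/mL for 48 h and nucleofected at the start with control siRNA that targets no gene (siCTL, 6 libraries) or with siRNA to Pou5f1, the gene of Oct4 (siOct4, 6 libraries). ES cells were grown with LIF on mouse embryonic fibroblast feeders, which were adsorbed before lysis, and XEN cells without LIF. The transgene came from an integrated cassette in selected clones, and the siRNA series used 1 clone.

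FOXA proteins bind DNA through a winged-helix domain and can engage their sites in compacted chromatin, for which they are known as pioneer factors. FOXA2 is needed in the embryo for the node, notochord and definitive endoderm and is also made in visceral endoderm, and the 3 FOXA genes act together in liver. HNF4A is a nuclear receptor that drives the genes of secreted plasma proteins and lipid carriers in visceral endoderm and later in liver, and HNF4G is its paralog, best known from gut. On mm10, in the GENCODE M21 annotation, Foxa2 spans chr2:148042877-148046969 on the minus strand, Hnf4a chr2:163506808-163572910 on the plus strand, Hnf4g chr3:3508030-3658052 on the plus strand, Foxa3 chr7:19013284-19023538 on the minus strand and Foxa1 chr12:57540628-57546916 on the minus strand.

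To show the sequence at which these genes start, the RefSeq promoter windows (GRCm38.p6, 250 bases before to 50 bases after an annotated start) were searched on both strands for the motifs of factors that move in this system. The table held 7 windows for 4 of the genes (Foxa2 with 3, Hnf4a with 2, Foxa1 and Foxa3 with 1 each). The GATA motif GATAA was found in 1 Foxa2 and 1 Hnf4a window and in 25.4% of all 32851 windows of this length. The forkhead motif TGTTTNC was found in the Foxa1 window and in the upstream Hnf4a window, and in 20.5% of all windows. GTTAAT, 1 arm of the HNF1 palindrome, was found in 1 Foxa2 window and at 2 places in the downstream Hnf4a window, and in 7.1% of all windows. The SOX motif AACAAT (10.7% of all windows), the HNF4 motif CAAAGTCCA (0.475%) and the POU octamer ATGCAAAT (1.74%) had no match in the 7 windows, and the Foxa3 window matched none of the motifs searched. The 4 windows with a match are printed 5′ to 3′ on the gene's strand, with the matches in capitals, on either strand, and no 2 matches overlap. They are the Foxa2 window chr2:148045415-148045714, which lies inside the gene's span, the Hnf4a windows chr2:163506607-163506906 and chr2:163546905-163547204 at its upstream and a downstream start, and the Foxa1 window chr12:57546062-57546361. A match is a description of the letters and was not tested as a binding site.
Foxa2: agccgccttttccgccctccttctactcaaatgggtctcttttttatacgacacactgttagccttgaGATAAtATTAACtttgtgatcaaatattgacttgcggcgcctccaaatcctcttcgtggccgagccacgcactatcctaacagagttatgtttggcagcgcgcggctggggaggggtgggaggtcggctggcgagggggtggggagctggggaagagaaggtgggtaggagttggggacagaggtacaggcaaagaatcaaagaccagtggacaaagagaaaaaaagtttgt
Hnf4a upstream: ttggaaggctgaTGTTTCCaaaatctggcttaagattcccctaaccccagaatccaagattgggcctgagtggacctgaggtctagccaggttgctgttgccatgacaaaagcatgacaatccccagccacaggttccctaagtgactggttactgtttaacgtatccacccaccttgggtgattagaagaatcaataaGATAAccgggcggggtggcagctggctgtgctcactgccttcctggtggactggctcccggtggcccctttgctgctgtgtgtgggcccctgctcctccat
Hnf4a downstream: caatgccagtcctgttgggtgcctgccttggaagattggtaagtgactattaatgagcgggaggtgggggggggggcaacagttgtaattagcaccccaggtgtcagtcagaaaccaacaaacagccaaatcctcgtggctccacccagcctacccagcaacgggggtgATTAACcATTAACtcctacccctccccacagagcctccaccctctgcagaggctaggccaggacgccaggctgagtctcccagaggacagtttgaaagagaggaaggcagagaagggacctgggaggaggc
Foxa1: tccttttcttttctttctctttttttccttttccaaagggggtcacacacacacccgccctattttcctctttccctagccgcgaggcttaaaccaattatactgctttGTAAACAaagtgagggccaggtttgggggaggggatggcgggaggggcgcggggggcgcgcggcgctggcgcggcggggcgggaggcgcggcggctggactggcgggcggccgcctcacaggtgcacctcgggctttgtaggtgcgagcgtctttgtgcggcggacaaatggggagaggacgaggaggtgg
The GATAA match of the upstream Hnf4a window begins 51 bases before the start, and the HNF1 arms of the downstream window begin 81 and 74 bases before it. The table has no window for Hnf4g, and the gene-level values do not say which start was used.

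Values are TPM, in which transcripts are counted relative to gene length and scaled to a fixed total in each library, so that levels of different genes can be set side by side, and the number of reads behind each value is unknown. In these bulk samples fewer cells of a type and less RNA per cell cannot be told apart. Gata6 lay between 0.193 and 0.375 TPM at 0 h and between 122.2 and 369.6 TPM in the libraries given Dox, as their labels say, and could hold transcripts of both the transgene and the endogenous gene. Pou5f1, a defining gene of ES cells, lay between 1558 and 1833 TPM at 0 h and did not pass 0.354 TPM in XEN cells, where Gata4 (336.3 and 346.7 TPM) and Sox17 (297.4 and 299.5 TPM), defining genes of primitive endoderm, were high. Pou5f1 was lower in every siOct4 library (281.6 to 386.6 TPM) than in any siCTL library (781.8 to 1194 TPM). Markers of the feeder fibroblasts did not vanish: all 11 listed markers were tested, and their summed level ranged from 40.3 to 161.6 TPM in the libraries up to 96 h, from 146 to 299.6 TPM at 168 h and from 100.6 to 103.7 TPM in XEN cells. Of the 5 genes, Foxa2, Foxa3 and Hnf4a reached a mean of 1 TPM in at least 1 group and were tested among 15057 genes. A gene was called at a limma adjusted p under 0.05 with a log2 fold change beyond 1 in the induction series or 0.5 in the siRNA series, on the log2(TPM + 1) scale. All changes against 0 h share the same 3 untreated libraries.

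Foxa2 rose early and kept rising. It stood at 0.213, 0.102 and 0.375 TPM in the 3 untreated libraries, at 6.48, 4.92 and 4.53 TPM at 16 h, and at 14.8, 14.3 and 5.62 TPM at 24 h. It then stood at 20.8, 26.2 and 16.3 TPM at 48 h, 47.9, 46.3 and 37.5 TPM at 72 h, and 52.3, 58.2 and 49.9 TPM at 96 h. The highest values were 95.9, 90.1 and 114.8 TPM at 168 h, and the 2 XEN libraries had 82.4 and 77.3 TPM. Ordered by mean, the groups ran from 0 h through the successive times to 96 h, then XEN cells and 168 h, and of the neighbours in that order only 16 and 24 h overlapped, through replicate 3 of 24 h. The mean was 5.31 ± 1.03 TPM (SD, n = 3) at 16 h, or 6.65% of the XEN mean, and passed the XEN mean only at 168 h, at 126%. Against 0 h the log2 fold change was 2.35 ± 0.24 (SE) at 16 h (limma adjusted p = 1.09e-06), 4.15 ± 0.24 at 48 h (limma adjusted p = 5.18e-11) and 6.36 ± 0.24 at 168 h (limma adjusted p = 1.64e-14). These values depend on the pseudocount, and with 0.1 in place of 1 the change at 16 h was 4.10.

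**Figure D1:**
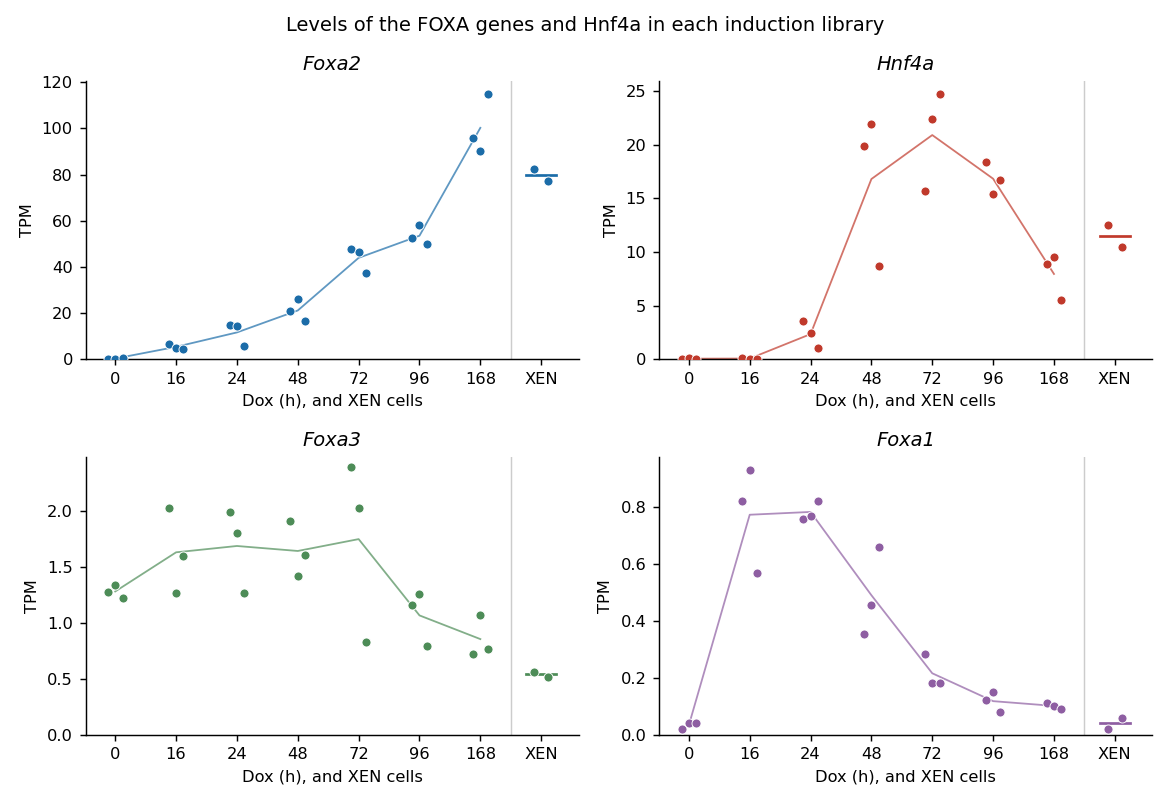
TPM of Foxa2, Hnf4a, Foxa3 and Foxa1 (vertical axes, each with its own scale from 0) in each induction library at the 7 Dox times, drawn at equal spacing, and in XEN cells; points are libraries, the line joins the time point means and the bar marks the XEN mean. Foxa2 climbs to between 90.1 and 114.8 TPM at 168 h, Hnf4a peaks at 72 h, Foxa3 stays under 2.5 TPM and Foxa1 under 1 TPM.

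Of the 3 genes tested, Foxa2 alone was called higher at 16 h, where 1.97% of all genes tested were called higher. Foxa2 and Hnf4a were both called higher at 24, 48, 72, 96 and 168 h, against 3.24%, 9.14%, 14.7%, 15.4% and 22.6% of all genes tested, and in XEN cells against 0 h, against 18.9%. Foxa3 was called at none of the 6 times and not in XEN cells.

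Hnf4a was called from 24 h on and had its highest mean at 72 h. It lay between 0.0203 and 0.0609 TPM at 0 h and between 0.0304 and 0.071 TPM at 16 h, with overlapping ranges and a log2 fold change of 0.02 ± 0.29 (SE; limma adjusted p = 0.989). At 24 h the libraries had 3.54, 2.42 and 1.03 TPM, at 48 h 19.9, 21.9 and 8.65 TPM, and at 72 h 15.6, 22.4 and 24.7 TPM. At 96 h they had 18.4, 15.4 and 16.7 TPM and at 168 h 8.86, 9.49 and 5.47 TPM, with 12.5 and 10.5 TPM in XEN cells. Every 168 h library lay below every library of 72 and 96 h. Ordered by mean, the groups ran 0, 16, 24 and 168 h, XEN cells, then 48, 96 and 72 h, and the neighbours 0 and 16 h, XEN and 48 h, 48 and 96 h, and 96 and 72 h overlapped. Against 0 h the log2 fold change was 1.61 ± 0.29 (SE) at 24 h (limma adjusted p = 3.07e-04), 4.38 ± 0.29 at 72 h (limma adjusted p = 1.32e-10) and 3.08 ± 0.29 at 168 h (limma adjusted p = 1.09e-08). With a pseudocount of 0.1 they were 4.0, 7.24 and 5.84.

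**Figure D2:**
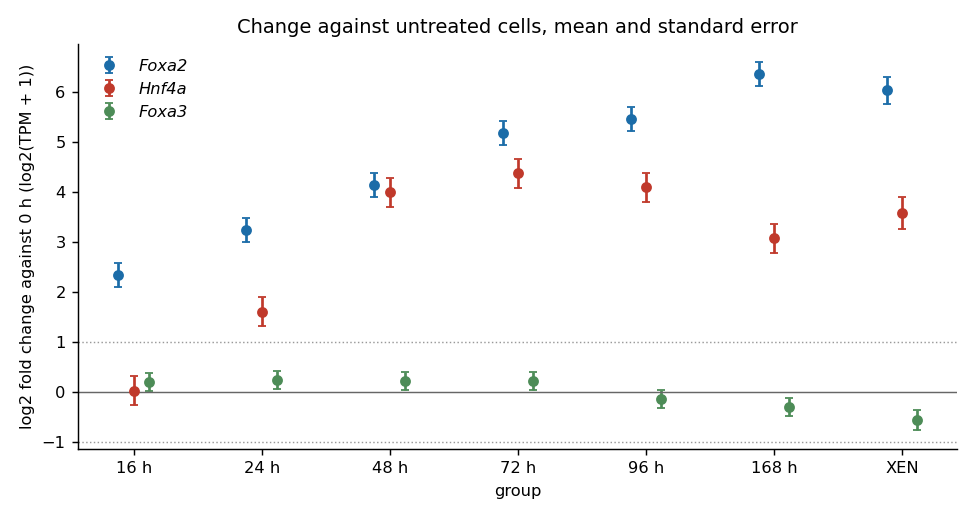
Log2 fold change against 0 h on the log2(TPM + 1) scale (vertical axis) of Foxa2, Hnf4a and Foxa3 at 6 Dox times and in XEN cells (horizontal axis); points are estimates from limma, bars are standard errors and dotted lines mark the fold change minimum of 1. Foxa2 goes from 2.35 at 16 h to 6.36 at 168 h, Hnf4a from 0.02 at 16 h to 4.38 at 72 h and back to 3.08, and Foxa3 stays between -0.57 and 0.23.

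The steps between successive times placed the moves of each gene. From 16 to 24 h Hnf4a was called higher by 1.59 ± 0.29 (SE; limma adjusted p = 0.00499), as were 0.232% of all genes tested, and from 24 to 48 h by 2.40 ± 0.29 (SE; limma adjusted p = 3.89e-06), as were 3.12%. Hnf4a was not called from 48 to 72 h (0.37, 95% interval -0.23 to 0.98) or from 72 to 96 h (-0.28, 95% interval -0.88 to 0.33), a step at which 1.71% of all genes tested were called in either direction. From 96 to 168 h Hnf4a was called lower by -1.02 ± 0.29 (SE; limma adjusted p = 0.00786), with 2.44% of all genes tested lower and 5.23% higher. This call did not hold without replicate 3 of 168 h (-0.81) or without replicate 1 of 96 h (-0.96), which both fell short of the fold change minimum. Foxa2 moved in smaller steps of 0.90 ± 0.24 from 16 to 24 h (SE; limma adjusted p = 0.0531), 0.89 ± 0.24 from 24 to 48 h (SE; limma adjusted p = 0.00684) and 0.89 ± 0.24 from 96 to 168 h (SE; limma adjusted p = 0.0059), none of which was called. Its step from 48 to 72 h was called, at 1.04 ± 0.24 (SE; limma adjusted p = 0.00337) where 1.95% of all genes tested were higher, and lost the call without replicate 3 of 48 h (0.88), replicate 1 of 72 h (0.98) or replicate 2 of 72 h (1.00). The step from 24 to 48 h gained a call without replicate 1 of 24 h (1.11), replicate 2 of 24 h (1.09) or replicate 3 of 48 h (1.06). The step from 16 to 24 h became 1.31 without replicate 3 of 24 h (limma adjusted p = 1.88e-04).

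The ratio of Foxa2 to Hnf4a TPM followed from these courses. In the 3 libraries of 16 h there was between 89.2 and 162 times as much Foxa2 as Hnf4a, when Hnf4a was near its untreated level. Hnf4a was then at 0.0304 to 0.071 TPM, a few of the steps of about 0.01 TPM in which values are written, so these ratios are imprecise. The same holds at 0 h, where the ratio lay between 1.67 and 12.3. At 48 h the ratio lay between 1.05 and 1.89, and at 168 h between 9.49 and 21. In XEN cells it was 6.58 and 7.36. Neither gene was called between XEN cells and 168 h, where 13.9% of all genes tested were called in either direction. The log2 difference, XEN minus 168 h, was -0.32 for Foxa2 (95% interval -0.88 to 0.25, limma adjusted p = 0.351) and 0.51 for Hnf4a (95% interval -0.17 to 1.19, limma adjusted p = 0.203), so these libraries do not show that the levels are equal.

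Foxa1 and Foxa3 stayed low throughout. Foxa1 had 0.0203 to 0.0406 TPM at 0 h, up to 0.932 TPM at 16 h and 0.76 to 0.821 TPM at 24 h, then 0.356 to 0.66 TPM at 48 h and 0.0913 to 0.112 TPM at 168 h. Every library given Dox lay above the untreated ones, and in XEN cells Foxa1 was back at 0.0202 and 0.0607 TPM. Because no group mean reached 1 TPM, Foxa1 was tested only in the fit with no filter on low values, where its log2 fold change at 16 h was 0.77 ± 0.08 (SE; limma adjusted p = 3.9e-06). This was too small for a call, and 0.98% of the genes of that fit were called higher. Values this low are written in steps of about 0.01 TPM, and the untreated libraries hold only a few such steps. Foxa3 had 1.28, 1.34 and 1.23 TPM at 0 h and group means between 0.541 TPM in XEN cells and 1.75 TPM at 72 h. Its log2 fold change at 168 h was -0.30 (95% interval -0.69 to 0.08, limma adjusted p = 0.143). In XEN cells it was -0.57 ± 0.20 against 0 h, short of a call by its size (SE; limma adjusted p = 0.019).

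The make-up of the FOXA transcripts changed accordingly. Foxa3 gave 83.2 ± 7.95% (SD, n = 3) of the summed TPM of the 3 genes at 0 h, and 21.2 ± 3.12% (SD, n = 3) at 16 h. Foxa2 gave 14.6 ± 8.01% of it in untreated cells. After 16 h its share was 68.7 ± 1.01% and after 168 h 99 ± 0.287% (SD over 3 libraries). The share of Foxa1 was largest at 16 h, with 10.1 ± 2.57% (SD, n = 3). Hnf4g was listed at 0 in 22 of the 23 libraries and at 0.0304 TPM in replicate 2 of 24 h, so that Hnf4a gave nearly all HNF4 transcripts once it was present.

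**Figure D3:**
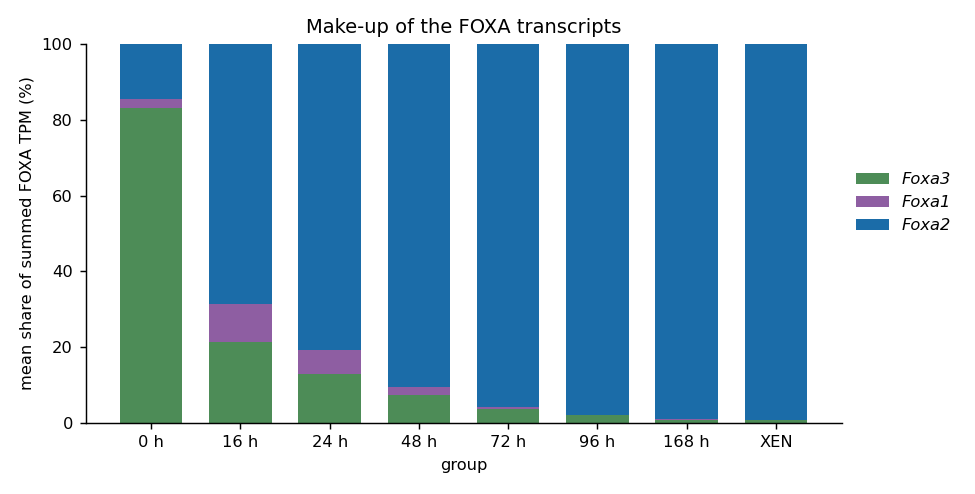
Mean share of Foxa1, Foxa2 and Foxa3 in their summed TPM (vertical axis, percent) in each group of the induction series (horizontal axis; 3 libraries each, 2 for XEN cells). The Foxa3 share goes from 83.2% at 0 h to 21.2% at 16 h while that of Foxa2 goes from 14.6% to 68.7%, and Foxa1 is largest at 16 h with 10.1%.

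Single libraries stood apart within their groups, in the members and in other genes. Replicate 3 had the highest summed fibroblast marker level of its group at 0, 16, 24, 48, 72 and 168 h. Replicate 3 of 24 h had the lowest Foxa2 and Hnf4a of its group, with Gata6 at 122.2 TPM against 143.3 and 144.7 TPM and Nanog, a pluripotency factor gene, at 97.5 TPM against 54.7 and 55.2 TPM. Replicate 3 of 48 h was likewise lowest in Foxa2 and Hnf4a, with Gata6 at 140.4 TPM against 173.4 and 177.4 TPM and Nanog at 36.5 TPM against 21.2 and 25.7 TPM. Replicate 3 of 72 h had the lowest Foxa2 (37.5 TPM) and Foxa3 (0.831 TPM) of its group, but the highest Hnf4a (24.7 TPM). It had Nanog at 8.87 TPM against 16.2 and 16 TPM and a summed fibroblast marker level of 161.6 TPM against 65.6 and 75.3 TPM. Replicate 3 of 168 h had the highest Foxa2 and the lowest Hnf4a of its group. The same library had Pou5f1 at 111.9 TPM against 39.1 TPM in both others, and a summed fibroblast marker level of 299.6 TPM against 146 and 147.4 TPM. The part of these differences in the members' values was not tested.

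Across the 23 induction libraries, the genes most like each member were sought by Pearson's r of log2(TPM + 1) among 9357 genes whose group means spanned at least 1 on that scale. These correlations describe libraries that share groups and cell state, and no p is given. Foxa2 was most like Lamc1 (r = 0.993), Lama1 (r = 0.993) and Lamb1 (r = 0.992), which encode the 3 chains of laminin-111 of the basement membrane. Lamb1 went from 29.5 ± 1.68 TPM in untreated cells to 4162 ± 45.4 TPM at 168 h (SD over 3 libraries). Hnf4a was most like Fkbp11 (r = 0.973), Klb (r = 0.969) and Pcbd1 (r = 0.968). Klb encodes the FGF19 and FGF21 co-receptor beta-Klotho, and Pcbd1 a dimerisation cofactor of HNF1. Klb had its highest mean at 72 h, 91.3 ± 18.3 TPM (SD, n = 3), as Hnf4a did. Foxa3 had lower best values, with Id1 (r = 0.883), Fndc5 (r = 0.867) and Pgc (r = 0.862). Between Foxa2 and Hnf4a themselves r was 0.834.

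**Figure D4:**
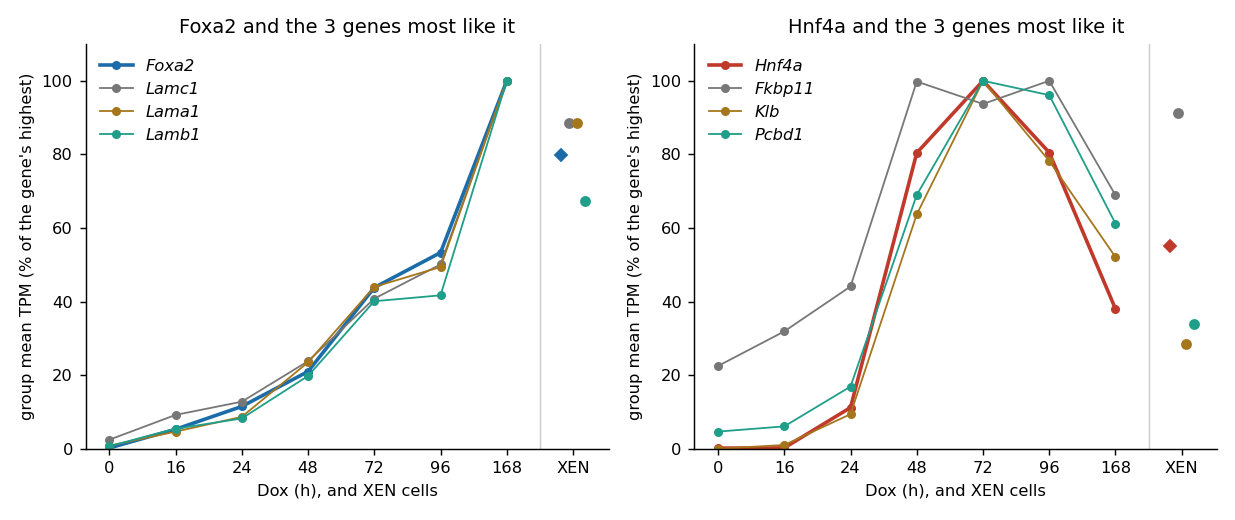
Group mean TPM as a percentage of each gene's highest group mean (vertical axis) at the Dox times, drawn at equal spacing, and in XEN cells, for Foxa2 with Lamc1, Lama1 and Lamb1 (left) and Hnf4a with Fkbp11, Klb and Pcbd1 (right). The left group is highest at 168 h; on the right Hnf4a, Klb and Pcbd1 are highest at 72 h and lower at 168 h.

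Other genes of the same circuits were taken from lists, and the same calls were counted. Of 13 liver-enriched and endoderm factors tested, 6 were higher and 1 lower at 168 h, where 22.6% of all genes tested were higher and 16.5% lower. Their median log2 fold change was 0.92, against 0.09 over all genes tested. The largest were Gata4 (7.97 ± 0.12, SE) and the SOX genes Sox17 (7.96 ± 0.18) and Sox7 (6.52 ± 0.20). At 16 h 5 of these 13 factors were higher and 1 lower, where 1.97% of all genes tested were higher and 0.804% lower. Of 26 genes of plasma proteins and lipid carriers known as targets of HNF4A or FOXA in liver, 15 were tested and 8 were higher and 4 lower at 168 h (median 1.4). At 16 h none of them was called in either direction. At 24, 48, 72 and 96 h, 0, 1, 3 and 1 of the 15 were higher, and 4 were lower at each of these times. In XEN cells 4 were higher and 4 lower than at 0 h. The highest change at 168 h was that of Ttr, the carrier of thyroid hormone (4.32 ± 0.63, SE), then Mttp, which loads lipid onto apolipoprotein B (3.14 ± 0.52). At that time Apoa2 (-3.44 ± 0.27) and Trf, encoding transferrin (-3.22 ± 0.30), were lower. Alb, Serpina1a and G6pc, textbook genes of mature liver that were also named after their values were seen, did not pass 0.0406 TPM as a mean in any group.

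Some of these 15, such as Apob and Apoa4, passed the filter on low values only through 168 h, so the counts at 168 h are a description. Their courses differed. Ttr, Apob and Apoa4 had their highest means at 168 h, and Ahsg, Apom and Pklr theirs at 72 h. All were named after their values were seen. Ahsg hardly moved between 48 h (2.57 ± 0.131 TPM, SD) and 72 h (2.66 ± 0.285 TPM). Pklr scattered widely at 72 h (2.66 ± 2.4 TPM, against 1.98 ± 0.748 TPM at 48 h). Apom stood out more, with 4.77 ± 1.38 TPM at 72 h and 1.88 ± 0.27 TPM at 96 h. Hnf4a too had its highest mean at 72 h, but its ranges at 48, 72 and 96 h overlapped. A shared maximum with Hnf4a was thus not shown for Ahsg or Pklr. Ttr had 52.4 and 44.1 TPM in replicates 1 and 2 of 168 h and 2.31 TPM in replicate 3. Mttp had 46.9, 43.9 and 9.95 TPM, and Rbp4, the retinol carrier, named after its values were seen, 30.2, 38.8 and 1.29 TPM in the same order. Replicate 3 had the lowest Hnf4a of its group, and also the highest Pou5f1 and the highest summed fibroblast marker level. At 96 h the mean of Hnf4a was higher, at 16.8 TPM, and that of Ttr was 1.48 TPM. A link between these values was not tested. Without replicate 3 of 168 h, 8 of the 15 were still higher and 3 lower at 168 h (median 1.68).

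Markers of endoderm subtypes were counted beside the members. Of all genes tested, 22.6% were higher and 16.5% lower at 168 h than at 0 h. All 7 visceral endoderm markers were higher at 168 h (median log2 fold change 5.98), with Cubn, the gene of the cubilin receptor, at 8.14 ± 0.27 (SE), Dab2, of an endocytic adaptor, at 8.07 ± 0.23, Cited1 at 6.11 ± 0.48 and Lrp2, of the receptor megalin, at 5.98 ± 0.31. In XEN cells 6 of the 7 were lower than at 168 h, as were 1380 of all 15057 genes tested, whereas Foxa2 and Hnf4a were not called. All 8 parietal endoderm markers were also higher at 168 h (median 6.48), led by Pth1r (8.04 ± 0.23), Lamb1 (7.10 ± 0.13), Sparc (7.02 ± 0.23) and Plat (6.74 ± 0.31). Of these 8 markers, 7 were higher at 168 h than at 96 h, as were 5.23% of all genes tested. Of the 6 anterior visceral endoderm genes tested, Dkk1 was higher (4.37 ± 0.23) and Lefty1 (-3.56 ± 0.38) and Otx2 (-2.66 ± 0.15) were lower at 168 h. At 48, 72 and 96 h 3 of the 6 were higher, against 9.14%, 14.7% and 15.4% of all genes tested, and 1, 2 and 2 were lower. Of 8 markers of node, notochord and definitive endoderm, the other embryonic sites of Foxa2, 4 were tested and the BMP antagonist gene Nog was the 1 higher (6.65 ± 0.22) and Foxj1 the 1 lower (-1.24 ± 0.19) at 168 h. Eomes of that list, named after its values were seen, was higher at 48, 72 and 96 h (1.80, 1.61 and 1.89) and not called at 168 h. T, Noto, Shh and Mixl1 did not reach a mean of 1 TPM in any group. Of the 11 fibroblast markers 7 were higher at 168 h, with Col3a1 (3.01 ± 0.49), Twist1 (1.82 ± 0.17), Lum (1.74 ± 0.42) and Postn (1.52 ± 0.31) the largest. Without replicate 3 of 168 h, 4 were higher. Lum and Dcn, the latter named after its values were seen, passed the filter on low values only through 168 h, so this count is a description. The part of feeder cells in the members' levels was not tested.

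Among the other forkhead genes, 41 symbols were found and 27 were tested. At 168 h 6 of the 27 were higher and 9 lower (median log2 fold change 0.19), where 22.6% of all genes tested were higher and 16.5% lower. The part that was higher was thus close to that over all genes. The largest rises were those of Foxq1 (4.66 ± 0.14, SE), Foxf2 (3.05 ± 0.14) and Foxj2 (2.90 ± 0.15), below the 6.36 of Foxa2 at that time. From 16 to 96 h the mean of Foxq1 was above that of Foxa2. At 48 and 72 h Foxq1 had means of 106.3 and 109 TPM, and Foxa2 21.1 and 43.9 TPM. The largest falls were those of Foxd3 (-3.76 ± 0.15), a pluripotency-associated factor, Foxp1 (-3.55 ± 0.19) and Foxh1 (-3.20 ± 0.16), the partner of nodal-activated SMADs. Foxq1 shared the early start of Foxa2, with 19 ± 1.51 TPM at 16 h (SD, n = 3). Like Hnf4a it was called lower from 96 to 168 h (-1.77 ± 0.14, SE), going from 94.6 ± 5.98 to 27.1 ± 1.78 TPM (SD over 3 libraries). Foxh1 had its highest mean at 48 h, 71.1 ± 6.54 TPM, and its mean was 1.15 ± 0.405 TPM after 168 h (SD over 3 libraries).

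The siRNA series asked what Oct4 contributes to the response after 48 h of Dox. Hnf4a was lower in siOct4 than in siCTL libraries, and Foxa2 was not. In siCTL libraries Hnf4a ranged from 3.44 to 17.2 TPM with a median of 4.53 TPM, and in siOct4 libraries from 0.581 to 3.24 TPM with a median of 1.86 TPM. The groups did not overlap, and Hnf4a was lower in siOct4 in 6 of 6 same-numbered pairs. The share of all genes tested with the same pattern is not given here, so how unusual it is cannot be said. Of the 6264 genes tested, 867 had an unadjusted limma p under 0.05 in the fit without pairing. The highest siCTL value, 17.2 TPM in replicate 4, lay far from the other 5, which did not pass 4.98 TPM. Foxa2 ranged from 19.1 to 32.5 TPM (median 22.6 TPM) in siCTL and from 15.5 to 39.3 TPM (median 26.6 TPM) in siOct4 libraries, with overlapping ranges and 3 of 6 pairs lower.

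The log2 fold change of Hnf4a was -1.23 ± 0.33 (SE; limma adjusted p = 0.0687), which did not pass the threshold in the fit without pairing, where 1.72% of the 6264 genes tested were called lower and 0.942% higher. When the replicate number entered the fit as a block, the change of Hnf4a was -1.23 ± 0.25 (SE; limma adjusted p = 0.0106) and was called, beside 6.15% of all genes tested lower and 2.43% higher. A two-sided exact permutation test of Hnf4a over all divisions of the 12 libraries into groups of 6 gave p = 0.00216 and an exact sign-flip test over the 64 patterns of the 6 pairs gave p = 0.0312, each the smallest that the design allows. Without pair 4 the mean log2 difference was -0.98, with exact p = 0.00794 over 252 divisions and p = 0.0625, again the smallest possible, over 32 sign patterns. Consecutive libraries of a group deviated together in 5 of 6 pairs. The exact tests here and in the next paragraph take libraries or pairs as independent units. Their p can be too small if consecutive libraries are not independent. When they were averaged to 3 against 3, the change of -1.28 had a limma adjusted p of 0.395, and of 0.0341 with the block.

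For Foxa2 the log2 fold change was 0.06 ± 0.23 (SE; limma adjusted p = 0.939), with a 95% interval of -0.43 to 0.55, and the exact permutation test gave p = 0.799. The difference between both genes was tested on the log2 ratio of Hnf4a + 1 to Foxa2 + 1 TPM in each library, a test chosen after the data had been seen. This ratio was lower in siOct4 libraries by a mean of -1.29, in 6 of 6 pairs, with ranges of -2.60 to -0.69 in siCTL and -3.60 to -2.76 in siOct4 libraries (two-sided exact permutation p = 0.00216, exact sign-flip p = 0.0312). Gata6 ranged from 92.6 to 198.5 TPM in siCTL and from 51.2 to 130.2 TPM in siOct4 libraries, was lower in 6 of 6 pairs and was highest in siCTL replicate 4, like Hnf4a (exact permutation p = 0.0541, exact sign-flip p = 0.0312). It was called neither without pairing, at -0.50 ± 0.22 (SE; limma adjusted p = 0.326), nor in the blocked fit, at -0.50 ± 0.14 (SE; limma adjusted p = 0.0503). The log2 ratio of Hnf4a + 1 to Gata6 + 1 TPM, also chosen after the data had been seen, was lower in siOct4 libraries by a mean of -0.73 in 6 of 6 pairs (exact permutation p = 0.00866). Gata6 TPM could hold transgene transcripts, so this ratio does not compare Hnf4a with the endogenous gene alone. The study measured endogenous Gata6 by its 5′ UTR and reported it lower upon Oct4 knockdown. The summed level of the 6 fibroblast markers in the siRNA table ranged from 31.1 to 217.1 TPM in siCTL and from 33 to 219.1 TPM in siOct4 libraries. Within same-numbered pairs it was not balanced. In pairs 1, 2 and 3 siCTL and siOct4 had 195 and 66.9, 181.4 and 62.5, and 31.1 and 40.55 TPM. In pairs 4, 5 and 6 they had 217.1 and 33, 41.7 and 219.1, and 49.9 and 198 TPM. The part of feeder cells in the paired differences was not tested. Set beside the 48 h libraries of the induction series, which were not nucleofected and stand in a separate table, Foxa2 was at a similar level (16.3 to 26.2 TPM there), while 5 of 6 siCTL libraries had less Hnf4a than any of the 3 (8.65 to 21.9 TPM). No test was made across the tables.

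**Figure D5:**
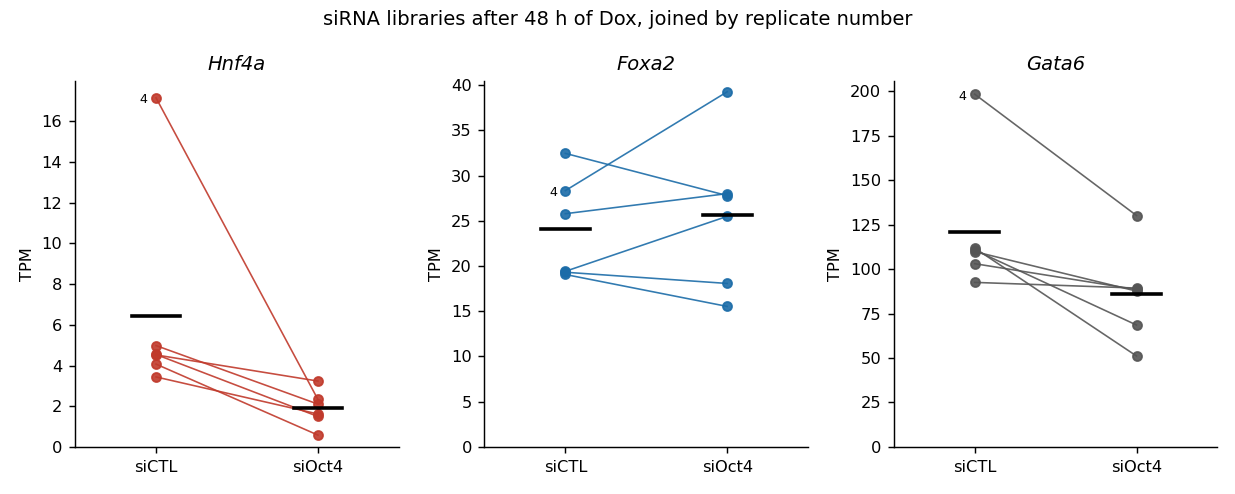
TPM (vertical axes from 0) of Hnf4a, Foxa2 and Gata6 in the 6 siCTL and 6 siOct4 libraries after 48 h of Dox; thin lines join libraries with the same replicate number, black bars are group means and siCTL replicate 4 is numbered. Hnf4a is lower in siOct4 in all 6 pairs, Foxa2 in 3 of 6, and siCTL replicate 4 is highest of its group in Hnf4a (17.2 TPM) and Gata6 (198.5 TPM).

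Genes of the same lists were counted in the siRNA table without pairing, and with the block where it changed a count. Of 7 visceral endoderm markers 2 were lower with siOct4, Cubn by -2.55 ± 0.46 (SE; limma adjusted p = 0.00641) and Amn, which encodes the partner of cubilin, by -1.43 ± 0.30 (SE; limma adjusted p = 0.0197). In the blocked fit Dab2 was lower too (-0.95 ± 0.19, SE; limma adjusted p = 0.0114). Of 4 anterior visceral endoderm genes Hesx1 (-1.88 ± 0.29, SE) and Dkk1 (-1.09 ± 0.24) were lower. Of 6 plasma and lipid carrier genes Ahsg, encoding fetuin-A, was lower (-0.86 ± 0.19), joined with the block by Apom (-0.78 ± 0.21, limma adjusted p = 0.043), and of 7 other forkhead genes Foxq1 was lower (-0.84 ± 0.18). Of 8 parietal endoderm markers Plat was higher (1.25 ± 0.28), and of 2 node and notochord genes Nog was higher with the block alone (1.10 ± 0.26, limma adjusted p = 0.0225). The block changed no count of the anterior visceral endoderm, parietal endoderm, fibroblast and forkhead lists. Lamb1, which followed Foxa2 in the induction series, was not called (-0.24 ± 0.20, limma adjusted p = 0.688). None of 8 liver-enriched and endoderm factors was called without pairing, while with the replicate number as a block 3 were lower, among them Sox7 (-0.79 ± 0.17, SE) and Gata4 (-0.60 ± 0.11), and 2 were higher, Cebpa (0.82 ± 0.18) and Nr5a2 (0.66 ± 0.18), the last 2 named after their values were seen. The median log2 difference over all 6264 genes was -0.12 and moved to 0.01 when libraries were rescaled by their median ratio, under which Hnf4a was lower by -1.13 (limma adjusted p = 0.0319).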

How the data were processed

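Stranded polyA libraries were made after feeder adsorption. The authors used cutadapt, the aligner STAR on mm10 and RSEM, and the deposited values are TPM, after leaving out outliers found by principal component analysis. Tool versions and the gene annotation are not given in the sources used here. Columns of the induction table summed to 999764 to 999881 TPM. The siRNA table was limited by the authors to 6275 genes, and its columns summed to 274527 to 355895 TPM. It also held the authors' group means and text classes from their own tests, which were not used. TPM keep no depth, so the spread between libraries is the measure of error. The study describes the replicates of both series as independent, without saying what separates them. In the siRNA series consecutive libraries of a group correlated in 5 of 6 pairs (r -0.07 to 0.71), and whether they share a day or a nucleofection is not given in the sources used here.

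Where a symbol stood on several rows (60 symbols), only the row of highest mean entered. A gene was tested if any group mean reached 1 TPM, with limma 3.58.1 in R 4.3.3 (lmFit, eBayes with trend and robust) on log2(TPM + 1), which understates changes of low genes, with Benjamini-Hochberg adjustment over all genes tested, 15057 in 1 fit of 8 groups and 6264 in the siRNA fit. The study's count-based test was not repeated, since the deposited values are TPM. Scripts were tested on simulated data. Exact tests used Python 3.11.15 with numpy 2.4.6 and scipy 1.17.1.

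In the siRNA series libraries of the same number deviated together in all 6 pairs (r 0.24 to 0.71), so the numbers were taken to pair the libraries. The fit with the block is given beside Hnf4a. Of pairs with other numbers, 10 of 30 also passed r = 0.1, up to 0.46. The pairing was thus read from these values, and the labels do not say that the numbers mark pairs. In the induction series 16 of 77 pairs of the same number passed r = 0.1, so the number is only shared.

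The members and lists were chosen with earlier results of these data known. Named genes were the members, from each list at most 4 genes with the largest called change at 168 h and at most 2 with siOct4, the 3 largest rises and falls among other forkhead genes at 168 h, the 3 genes most like each tested member, and Gata6 and Pou5f1 as checks of the labels. The values of 1 listed gene are not reported here. The alternatives tried were a pseudocount of 0.1, a filter at a mean of 5 TPM, no filter, rescaling by median of ratios, the replicate block, only the compared groups in the fit, and each library of the compared groups left out in turn. The averaging of consecutive siRNA libraries, the log2 ratios and the tests without pair 4 were chosen only once values were known. Gene positions came from GENCODE M21, and promoter windows from RefSeq on GRCm38.p6.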

Additional observations from a re-analysis of the deposited data

Results flagged for a closer look

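In the siRNA series, 22 groups of 6 libraries were examined for a library far from the others on the log2(TPM + 1) scale, and 2 held one, where chance gives about 1.1. Both were siCTL replicate 4. Its Hnf4a value was 4.18, with the other 5 between 2.15 and 2.58, and its Gata6 value was 7.64, with the others between 6.55 and 6.82. Foxa2 had no such library in either group. In siCTL, replicate 4 was also highest in Gata4 (399.6 TPM) and Sox17 (66.3 TPM), but not in Foxa2 or Nanog. Without siCTL replicate 4 the change of Hnf4a in the unpaired fit was -0.93 (limma adjusted p = 0.0676).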

How the results depend on the processing

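Of the recomputed values of members, 458 kept direction and call, 13 changed sign, 8 gained a call and 6 lost one. Hnf4a with siOct4, not called without pairing, was called with the replicate block (-1.23), after median-of-ratios rescaling (-1.13) and, in an alternative added after the data had been seen, with consecutive libraries averaged and the block (-1.28). Leaving out single siRNA libraries moved it between -1.35 and -0.93 with no change of call, and moved Foxa2 with siOct4, which was not called, between -0.07 and 0.19. The fall of Hnf4a from 96 to 168 h ranged from -1.15 to -0.81 with single libraries left out, and its step from 48 to 72 h from -0.02 (without replicate 3 of 48 h) to 0.60. The step of Foxa2 from 48 to 72 h lost its call after rescaling (1.00). A pseudocount of 0.1 gave larger changes against 0 h with the same calls, for Foxa2 4.10 at 16 h and 8.33 at 168 h, and for Hnf4a 4.0 at 24 h and 5.84 at 168 h, and for the step of Hnf4a from 16 to 24 h 3.87 in place of 1.59. The uncalled steps of Foxa3 changed sign: leaving out single libraries gave -0.07 to 0.15 from 16 to 24 h, -0.14 to 0.06 from 24 to 48 h and -0.16 to 0.28 from 48 to 72 h, the last also -0.02 after rescaling and -0.03 with a pseudocount of 0.1. With that pseudocount Foxa3 in XEN cells against 0 h was called lower (-1.11). In the induction series the replicate block changed no call of a member (Foxa2 at 168 h 6.36, Hnf4a 3.08).

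Counts over all genes tested moved by over 1.5 times mainly with the pseudocount of 0.1: genes higher from 296 to 501 at 16 h and from 488 to 878 at 24 h, genes lower from 367 to 562 at 24 h, and genes lower in XEN cells than at 168 h from 1380 to 2266. Between successive times this pseudocount gave 65 in place of 35 genes higher from 16 to 24 h, 738 for 470 higher and 745 for 367 lower from 24 to 48 h, 442 for 294 and 611 for 208 from 48 to 72 h, 177 for 101 and 432 for 156 from 72 to 96 h, and 1222 for 787 and 816 for 368 from 96 to 168 h. With only the compared groups in the fit, 10 and 7 genes were called from 72 to 96 h. In the siRNA series 59 genes were higher and 108 lower without the block and 152 and 385 with it, 144 were higher after rescaling, and none was called by limma with consecutive libraries averaged, where 483 had an unadjusted p under 0.05, or 65 higher and 138 lower with averaging and the block. Rescaling moved the balance at 168 h from 3396 higher and 2491 lower to 2869 and 2926. The cause of these shifts was not tested.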

Other observations

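The gene next to Foxa2 was looked at after the members' values had been seen. The lincRNA 9030622O22Rik lies on the same strand (mm10, chr2:147944740-148040203), and its span ends 2.67 kb from that of Foxa2. It was listed at 0 in all 3 untreated libraries and reached a mean of 0.0948 ± 0.0212 TPM at 48 h, when Foxa2 was at 21.1 TPM. At 72 h it was at 1.02 ± 0.244 TPM, at 168 h at 8.15 ± 3.05 TPM (SD, n = 3 each) while the 2 XEN libraries had 6.77 and 6.07 TPM. Against 0 h it was first called at 72 h, by 1.01 ± 0.20 (SE; limma adjusted p = 1.72e-04), at the fold change minimum, and was higher by 3.14 ± 0.20 at 168 h (SE; limma adjusted p = 2.6e-11), where Foxa2 had been called from 16 h. Hnf4aos, an antisense gene (chr2:163493807-163541720, minus strand) that overlaps the 5′ part of Hnf4a, did not pass 0.0406 TPM in any library.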
